A study of Mus musculus with 15 samples.

Results

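The genes described here encode collagens that do not build the thick banded fibrils themselves. They are the beaded-filament collagen VI (Col6a1, Col6a2, Col6a3), the network-forming collagen VIII (Col8a1, Col8a2), the fibril-associated collagens XII, XIV and XVI (Col12a1, Col14a1, Col16a1) and the transmembrane collagens XIII and XXIII (Col13a1, Col23a1). They were taken by symbol and make up 10 of the 56748 genes in the deposited table of RNA-seq counts. Each symbol was found once.

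RNA was measured in kidney and lung of male C57Bl/6 mice of wild-type genotype, with 3 libraries in each of 5 groups. WTK kidneys came from mice aged 10 to 12 weeks that received vehicle, and their labels name no antibody. IgGK and LepK kidneys came from mice of the same age that received 1 dose of folic acid (200 mg/kg), which injures the tubules, and then an IgG control antibody or LepAb, an antibody that neutralizes leptin, at 10 mg/kg every other day until day 21, with tissue taken on day 28. IgGL and LepL lungs came from mice aged 12 weeks given bleomycin (1.5 units/kg) into the airway and then IgG or LepAb at 10 mg/kg every other day, with tissue taken on day 14. Vehicle lungs were not analysed here, so the lung data hold no uninjured level.

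Collagen VI chains α1, α2 and α3 join into a heterotrimer, which assembles into beaded microfilaments that link cells and basement membranes to the surrounding matrix. A C-terminal piece of the α3 chain is cut off after secretion and is known as endotrophin. Collagen VIII is a short-chain collagen that forms lattices in vessel walls and in the basement membrane of the cornea. Collagens XII and XIV sit on the surface of collagen I fibrils and influence fibril spacing and diameter, and collagen XVI is a related molecule found near fibrils, fibrillin microfibrils and basement membranes. Collagens XIII and XXIII span the plasma membrane and can be shed from it.

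Total counts per library ranged from 25913969 to 38924788, so that 1 count equalled 0.0257 to 0.0386 CPM (counts scaled to a common library total). Markers matched the labelled organs. The 5 proximal tubule markers summed to 3087 to 14060 normalized CPM in the kidney libraries, and the 4 alveolar type 2 markers summed to 6238 to 23080 in the lung libraries against 0.0329 to 0.286 in kidney. IgGK replicates 1 and 2 stood apart by transcripts of the adrenal cortex, the outer layer of the gland that lies on the kidney. The 5 adrenal cortex markers (Star, Cyp11b1, Cyp11b2, Cyp21a1, Akr1b7) summed to 431 and 565 normalized CPM in these 2 libraries and to 13.6 in IgGK replicate 3. They summed to 7.38 to 8.47 in WTK, where Cyp11b1, Cyp11b2 and Cyp21a1 had 0 counts in all 3 libraries, and to 7.01 to 8.57 in LepK. For the 10 genes, the log2 fold change in LepK against IgGK is therefore also given with IgGK replicate 3 as the only IgGK library. So are some values of the other comparisons that use IgGK. That fit assumes that this library varies as the other groups do. Sums of levels, shares of the rise and chain ratios were not computed in this way.

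Promoter windows of RefSeq (mouse build GRCm38.p6, 250 bases before to 50 bases after a transcription start) were found for 8 of the 10 genes, and Col12a1 and Col14a1 had no entry. The windows of the 3 collagen VI genes are shown because their transcripts changed together. That of Col23a1 is shown because its transcript was higher in LepK than in IgGK, where theirs were lower. They run 5′ to 3′ on the strand of the gene, and capitals mark matches, on either strand, to any of 6 motifs, which were the TATA box TATAAA, the CCAAT box CCAAT, the GC box GGGCGG, the AP-1 motif TGANTCA, the STAT motif TTCNNNGAA and the TEAD motif GGAATG. The windows are chr10:76725995-76726294 for Col6a1 (minus strand), chr10:76623581-76623880 for Col6a2 (minus strand, the outermost of 2 annotated starts), chr1:90843922-90844221 for Col6a3 (minus strand) and chr11:51289670-51289969 for Col23a1 (plus strand).
Col6a1: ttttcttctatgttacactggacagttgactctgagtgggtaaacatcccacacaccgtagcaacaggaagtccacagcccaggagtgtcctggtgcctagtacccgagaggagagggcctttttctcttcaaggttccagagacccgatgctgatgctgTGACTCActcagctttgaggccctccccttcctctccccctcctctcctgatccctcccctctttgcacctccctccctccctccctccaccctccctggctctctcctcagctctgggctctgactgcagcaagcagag
Col6a2: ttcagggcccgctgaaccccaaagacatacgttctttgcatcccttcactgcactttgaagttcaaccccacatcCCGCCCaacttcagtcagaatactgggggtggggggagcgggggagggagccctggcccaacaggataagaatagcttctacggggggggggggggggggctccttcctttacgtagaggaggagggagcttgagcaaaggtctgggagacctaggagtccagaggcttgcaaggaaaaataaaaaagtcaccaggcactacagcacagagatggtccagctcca
Col6a3: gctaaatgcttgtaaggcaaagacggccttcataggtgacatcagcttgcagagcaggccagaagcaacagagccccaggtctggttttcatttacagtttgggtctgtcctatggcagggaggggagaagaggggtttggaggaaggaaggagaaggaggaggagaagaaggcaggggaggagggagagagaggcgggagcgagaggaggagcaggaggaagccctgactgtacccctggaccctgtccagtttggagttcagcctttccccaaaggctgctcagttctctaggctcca
Col23a1: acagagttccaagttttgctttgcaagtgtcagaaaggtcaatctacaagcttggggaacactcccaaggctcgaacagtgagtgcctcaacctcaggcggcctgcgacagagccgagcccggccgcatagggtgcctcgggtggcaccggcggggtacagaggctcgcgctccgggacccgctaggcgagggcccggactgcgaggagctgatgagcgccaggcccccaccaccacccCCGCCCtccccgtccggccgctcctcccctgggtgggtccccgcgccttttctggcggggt

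The Col6a1 window held 1 AP-1 motif, which 7.81% of all 32851 windows hold. The Col6a2 window and the Col23a1 window each held 1 GC box, which 35.7% of all windows hold. None of the 6 motifs was found in the Col6a3 window. No window of the 8 genes held the STAT motif, which 8.30% of all windows hold, and this says only that these letters were absent from these 300 bases. The GC box was also found in the windows of Col8a1 and Col8a2, 4 times in each, and in that of Col16a1, 2 times. Col16a1 held 1 CCAAT box (37.4% of all windows), and Col13a1 held the only TATA box (13.6% of all windows). The second start of Col6a2, downstream of the one shown, had 3 GC boxes and 1 TEAD motif (14.7% of all windows). The GC content was 56.3% to 74.3% over the windows of the 8 genes, against a median of 52.7% over all windows. These sequences are a description, since the data hold no measurement of the promoters themselves.

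The deposited table gives gene positions on the mouse build GRCm39. Col6a1 (ENSMUSG00000001119) and Col6a2 (ENSMUSG00000020241) are neighbours on chromosome 10, both on the minus strand, at chr10:76544626-76562002 and chr10:76431596-76459464, with 85161 bases and 1 listed gene, Gm35608, between them. Col6a3 (ENSMUSG00000048126) lies apart from them at chr1:90693645-90771693 on the minus strand. The libraries did not keep the strand, so reads of overlapping genes cannot be told apart. Col6a3, Col12a1, Col14a1 and Col13a1 overlap 6 listed genes in all, each of which had at most 10 counts in any library. The lowest counts of Col6a3, Col12a1 and Col14a1 were 558, 230 and 458, whereas that of Col13a1 was 10, beside up to 7 counts of its overlapping pseudogene Gm5750.

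Levels of different genes were compared per gene length, as the deposited FPKM (counts divided by gene length and by a total the authors set for each library, which was 1.02 to 1.46 times its summed counts). Col6a1 had the highest level of the 10 genes in every group. In kidney its mean was 4.24 ± 0.70 FPKM for WTK, 13.4 ± 2.2 for IgGK and 8.41 ± 1.36 for LepK, and in lung it was 127 ± 17 for IgGL and 69.5 ± 10.5 for LepL (SD, n = 3 libraries per group). The ranges of Col6a1 and of the gene next to it in level did not overlap in any group. In WTK, Col16a1 (3.09 FPKM) and Col14a1 (2.89 FPKM) came next, and their ranges overlapped. In IgGK, Col16a1 (6.29 FPKM) was followed by Col12a1 (4.21 FPKM), Col6a2 (4.12 FPKM) and Col6a3 (4.09 FPKM), whose ranges overlapped from each to the next. Col12a1 had ranked 7 in WTK at 0.549 FPKM, and it ranked 6 in LepK at 1.20 FPKM.

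In lung the 3 collagen VI genes took the first 3 ranks in both groups. They were followed in IgGL by Col23a1 (14.5 FPKM), Col16a1 (9.62 FPKM), Col12a1 (8.53 FPKM) and Col13a1 (6.85 FPKM), and from Col23a1 on each of these ranges overlapped that of the next. In LepL, Col16a1, Col23a1, Col12a1, Col14a1 and Col13a1 lay between 5.34 and 7.003 FPKM, each range overlapping the next. The lowest levels in every group but IgGK and LepK were those of Col8a2, with 0.113 FPKM in WTK, 1.66 FPKM in IgGL and 1.80 FPKM in LepL. In IgGK and LepK, Col13a1 was lowest, at 0.143 and 0.129 FPKM. The difference in level between organs was not tested, since organ, injury and day of collection differ together.

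**Figure D1:**
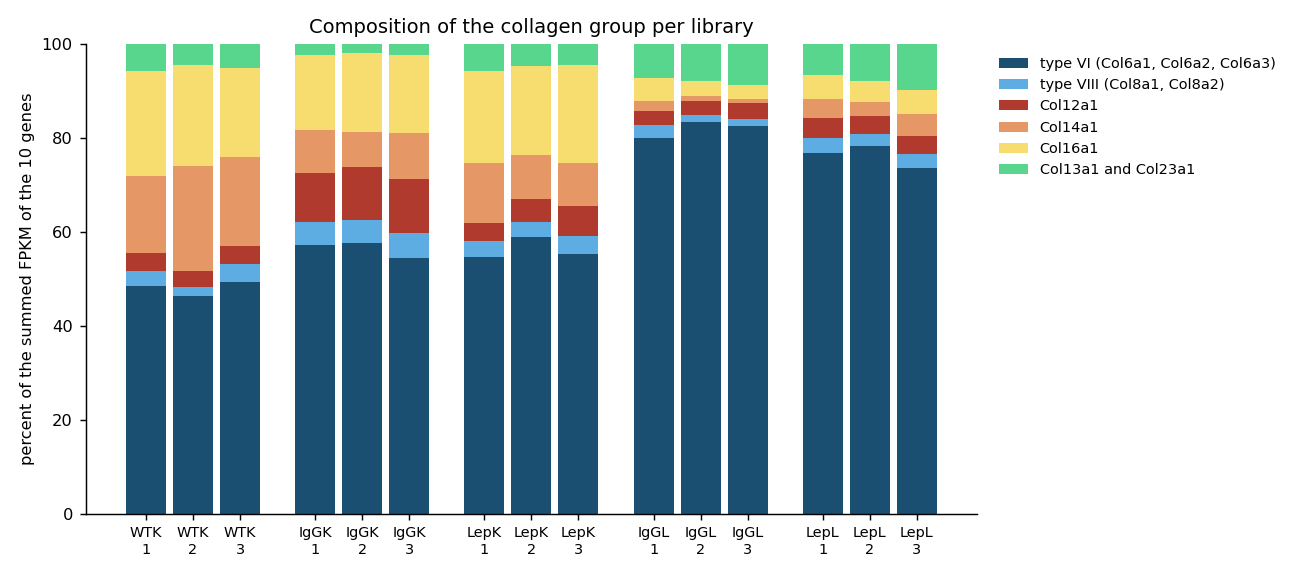
Each bar is 1 library, and its parts are the percent of the summed FPKM of the 10 genes that came from collagen VI, collagen VIII, Col12a1, Col14a1, Col16a1 and the 2 transmembrane collagens. Collagen VI made up 46.4% to 49.3% in WTK and 73.7% to 83.3% in lung, and Col12a1 made up at most 3.85% in WTK and at least 10.45% in IgGK.

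The summed FPKM of the 10 genes lay between 13.5 and 16.6 in WTK, between 33.7 and 42.0 in IgGK and between 21.8 and 26.4 in LepK, with no overlap between any pair of the groups. In lung it lay between 219.8 and 297.5 in IgGL and between 126.7 and 158.3 in LepL. The plot of composition by library shows which genes made up these sums. Col12a1 made up 3.38% to 3.85% of the sum in WTK, 10.45% to 11.5% in IgGK and 3.85% to 6.25% in LepK. The share of Col14a1 was 16.6% to 22.4% in WTK, 7.54% to 9.85% in IgGK and 9.14% to 12.8% in LepK. In lung, Col14a1 made up 0.762% to 2.16% in IgGL and 3.12% to 4.65% in LepL. Among all collagen genes measured here (the 10 genes with the fibrillar, type IV and other nonfibrillar collagens), the 10 genes made up 9.49% to 11.3% of the summed FPKM over the 9 kidney libraries, with overlapping groups, and 17.1% to 20.6% over the 6 lung libraries.

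Differences between groups were tested on counts with edgeR, and values per library are given as CPM normalized by TMM factors. Each library was taken as 1 mouse, and the p-values measure the spread between these libraries. A gene was called where its absolute log2 fold change was over 0.5 and its adjusted p, over all genes tested, was under 0.05. All 10 genes passed the filter on low counts in kidney and in lung. After folic acid with IgG, 7 of the 10 rose and none fell, where 21.7% of all 19593 genes tested rose and 15.6% fell. At an unadjusted p under 0.05 none was lower either, and DESeq2 gave 7 and 0. Scaled by library size, 9 of the 10 were up and 0 down, with 7803 of all genes up and 1178 down. With IgGK replicate 3 alone, the log2 fold changes of the 7 genes that rose ran from 0.90 for Col16a1 to 2.86 for Col12a1.

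In LepK against IgGK, 5 of the 10 fell (5.99% of all genes) and 1 rose (4.38% of all genes), and DESeq2 called 6 down and 1 up. With IgGK replicate 3 as the only IgGK library, 2 of the 10 fell, Col6a3 and Col12a1, and none rose, while the calls over all genes went from 1174 to 235 down and from 858 to 429 up. This comparison and IgGK against WTK share the 3 IgGK libraries. Against WTK, LepK kidneys had 7 of the 10 genes up (15.2% of all genes) and 0 down (7.30% of all genes), with 0 lower at an unadjusted p under 0.05 and 0 by DESeq2. In LepL against IgGL, 4 of the 10 fell (2.36% of all 19617 genes tested) and 0 rose (1.78% of all genes). At an unadjusted p under 0.05, 8 genes were lower in LepL and 1, Col14a1, was higher. DESeq2 called 5 of the 10 down and Col14a1 up. It called 1242 of all genes up, against 349 by edgeR.

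Groups did not overlap for 8 of the 10 genes in IgGK against WTK (62.6% of all genes), for 9 in LepK against IgGK (37.4% of all genes), for 8 in LepK against WTK (50.2% of all genes) and for 8 in LepL against IgGL (33.3% of all genes). The median log2 fold change of the 10 genes was 1.51, -0.70, 0.76 and -0.54 in these comparisons, against 0.04, -0.01, 0.03 and 0.003 over all genes tested. When library size replaced the TMM factors, the all-gene median became 0.48 for IgGK against WTK, -0.19 in LepK against IgGK and 0.29 in LepK against WTK. The LepK against IgGK calls among the 10 genes then went from 1 up and 5 down to 0 up and 8 down. Over all genes those calls went from 858 up and 1174 down to 408 up and 2185 down.

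**Figure D2:**
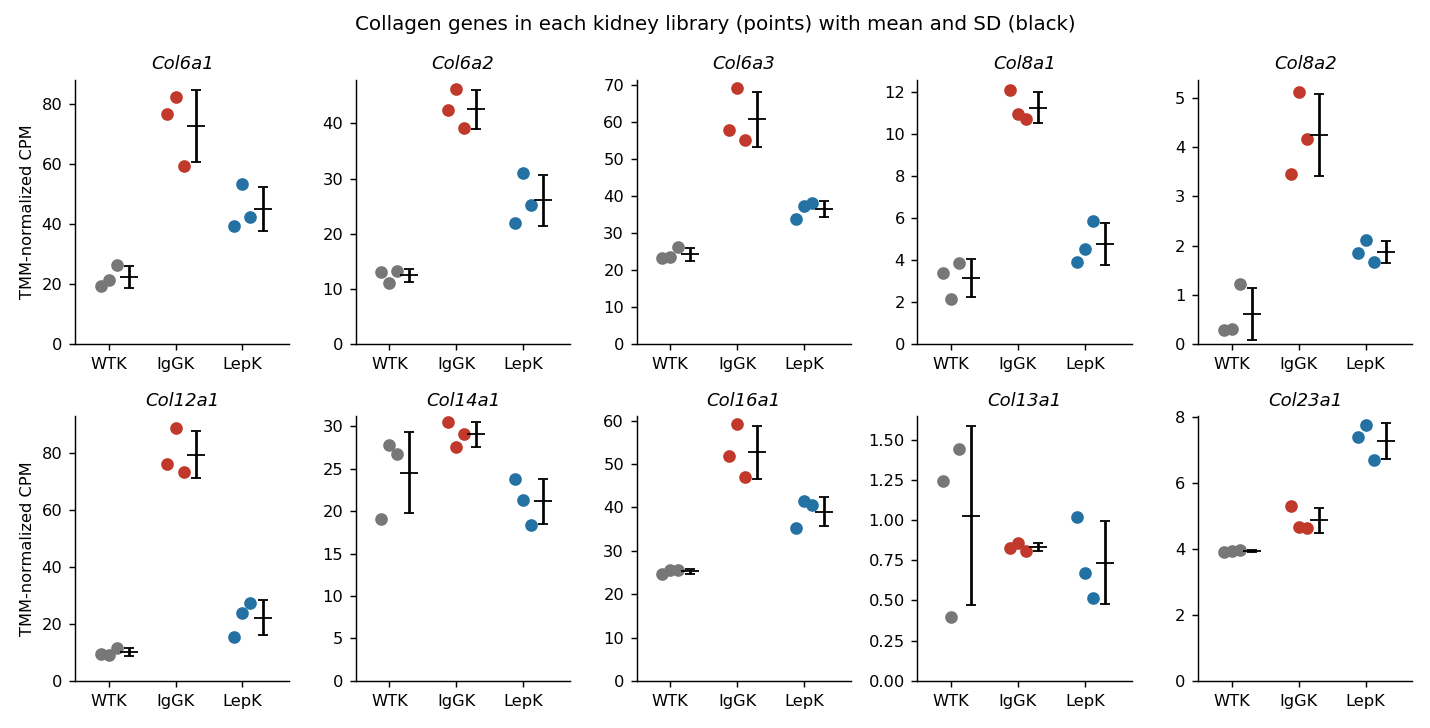
Each panel is 1 gene, the horizontal axis gives the group and the vertical axis gives TMM-normalized CPM, with 1 point per kidney library and the mean with its SD in black. For Col6a1, Col6a2, Col6a3, Col8a1, Col8a2, Col12a1 and Col16a1 the 3 IgGK libraries lie above all others, and for Col23a1 the 3 LepK libraries do.

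Of the collagen VI chains, Col6a1 stood at 19.4, 21.4 and 26.5 normalized CPM in WTK, at 76.7, 82.3 and 59.3 in IgGK and at 39.4, 53.2 and 42.2 in LepK. The 3 groups did not overlap, and LepK lay between WTK and IgGK. Col6a1 rose in IgGK over WTK, with a log2 fold change of 1.69 ± 0.15 (SE, n = 3 per group, adjusted p = 1.3e-06 by edgeR), and fell in LepK against IgGK, with -0.69 ± 0.14 (adjusted p = 0.00534). With IgGK replicate 3 alone, which had the lowest Col6a1 of the IgGK libraries, the latter was -0.39 with an adjusted p of 0.27 by edgeR.

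Col6a2, whose chain pairs with α1 in the trimer, stood at 13.0, 11.2 and 13.3 normalized CPM in WTK, at 42.4, 46.2 and 39.1 in IgGK and at 21.9, 31.0 and 25.3 in LepK. Its groups were ordered in the same way, without overlap. It rose in IgGK with a log2 fold change of 1.77 ± 0.13 (adjusted p = 2.61e-07 by edgeR) and fell in LepK against IgGK with -0.71 ± 0.12 (adjusted p = 0.00179). The second of these became -0.58 with IgGK replicate 3 alone (adjusted p = 0.0887 by edgeR).

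Col6a3, which encodes the longest of the 3 chains and holds the endotrophin sequence, stood at 23.2, 23.4 and 26.3 normalized CPM in WTK, at 57.9, 69.0 and 55.0 in IgGK and at 33.9, 37.3 and 38.1 in LepK. Again LepK lay between the others with no overlap. It rose with a log2 fold change of 1.32 ± 0.10 in IgGK (adjusted p = 2.78e-07 by edgeR) and fell with -0.74 ± 0.09 in LepK against IgGK (adjusted p = 0.000403). Unlike those of the other chains, this call held with IgGK replicate 3 alone (-0.58, adjusted p = 0.0221 by edgeR).

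In LepK the 3 chains remained above WTK. The log2 fold change of LepK against WTK was 0.9999 ± 0.15 for Col6a1, 1.06 ± 0.13 for Col6a2 and 0.58 ± 0.10 for Col6a3, and all 3 were called. Measured on the group means, the part of the IgGK rise that was absent in LepK was 55.3% for Col6a1, 54.9% for Col6a2 and 66.6% for Col6a3. This measure uses the IgGK libraries both times. As a share of the IgGK mean, the LepK mean was 61.8%, 61.2% and 60.1% in the same order.

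In bleomycin lung, Col6a1 stood at 689, 923 and 828 normalized CPM in IgGL and at 446, 494 and 363 in LepL. Col6a2 stood at 530, 712 and 696 in IgGL and at 361, 375 and 280 in LepL. Col6a3 stood at 376, 798 and 862 in IgGL and at 238, 236 and 199 in LepL. All 3 were lower in every LepL library than in every IgGL library, and IgGL replicate 1 was the lowest IgGL library for each chain. The log2 fold changes were -0.90 ± 0.16 for Col6a1, -0.93 ± 0.16 for Col6a2 and -1.60 ± 0.28 for Col6a3 (SE, n = 3 in each group), each with an adjusted p of 0.0327 by edgeR.

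These lung calls depended on which libraries were in the fit. Without IgGL replicate 1, the log2 fold changes of the chains were -1.01, -1.06 and -1.89, and each chain was called down. Without any other of the 6 libraries, 0 of the 10 genes were called down by edgeR, and at most 4 of all genes were called down. The fold changes of the chains in those fits kept their sign, with values up to -0.79 for Col6a1, -0.81 for Col6a2 and -1.39 for Col6a3.

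The proportions of the chains were compared as ratios of FPKM with exact two-sided permutation tests, for which 3 libraries against 3 cannot give a p below 0.1. The ratio of Col6a2 to Col6a1 was 0.295 in WTK, 0.310 in IgGK and 0.304 in LepK, as geometric means over libraries, and 0.417 in IgGL and 0.410 in LepL. Its change was at most 0.07 on the log2 scale in the 3 comparisons (exact permutation p = 0.6, 0.9 and 0.7). The ratio of Col6a3 to Col6a1 was 0.399 in WTK and 0.307 in IgGK, a log2 difference of -0.38 ± 0.12 with no overlap between the groups (exact permutation p = 0.1, adjusted p = 0.45 over 9 tests). In LepK it was 0.299, a log2 difference of -0.04 ± 0.14 from IgGK (exact permutation p = 0.7). In lung it was 0.289 in IgGL and 0.190 in LepL, a log2 difference of -0.60 ± 0.28 (exact permutation p = 0.2). IgGL replicate 1 (0.1995) lay within the range of LepL (0.1749 to 0.2004).

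Of the network-forming collagen VIII, Col8a1 stood at 3.41, 2.13 and 3.86 normalized CPM in WTK, at 12.1, 10.9 and 10.7 in IgGK and at 3.92, 4.53 and 5.83 in LepK. LepK lay just above WTK, with its lowest library beside the highest of WTK. Col8a1 rose in IgGK (log2 fold change 1.84 ± 0.22, adjusted p = 1.82e-05 by edgeR) and fell in LepK against IgGK (-1.24 ± 0.22, adjusted p = 0.00208). The latter was -1.16 with IgGK replicate 3 alone (adjusted p = 0.0792 by edgeR). LepK against WTK gave 0.60 ± 0.23 (adjusted p = 0.0535 by edgeR) and was not called, though it was called without WTK replicate 3 (0.78) and without LepK replicate 1 (0.73).

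Col8a2, the partner chain, was low in WTK, at 0.291, 0.316 and 1.23 normalized CPM. Its fold changes over WTK and its chain ratio there therefore rest on few counts. It stood at 3.46, 5.12 and 4.16 in IgGK and at 1.84, 2.11 and 1.66 in LepK. The groups did not overlap, and WTK replicate 3 lay nearer to LepK than to the other WTK libraries. Col8a2 rose in IgGK (log2 fold change 2.77 ± 0.45, adjusted p = 0.000209 by edgeR), with 3.79 when WTK replicate 3 was left out, and was higher in LepK than in WTK (1.59 ± 0.46, adjusted p = 0.0153), a call that was lost without WTK replicate 1 (1.27) or WTK replicate 2 (1.28) and that became 2.61 without WTK replicate 3. Its difference between LepK and IgGK, -1.18 ± 0.41, was not called (adjusted p = 0.0599 by edgeR). DESeq2 did call it (adjusted p = 0.0133), and it was called in 5 of 18 alternatives. With IgGK replicate 3 alone the difference was -1.14.

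In lung neither collagen VIII gene was called. Col8a1 stood at 38.8, 36.2 and 28.6 normalized CPM in IgGL and at 29.0, 27.3 and 21.3 in LepL, which overlapped (log2 fold change -0.42 ± 0.16, adjusted p = 0.137 by edgeR). Col8a2 stood at 14.9, 8.66 and 8.91 in IgGL and at 13.0, 9.41 and 12.2 in LepL (0.09 ± 0.24, adjusted p = 0.842 by edgeR), and its sign changed when single libraries were left out. The ratio of Col8a2 to Col8a1 in FPKM was 0.277 in WTK, 0.653 in IgGK and 0.693 in LepK, and 0.533 in IgGL and 0.777 in LepL. Its log2 difference was 1.23 ± 0.59 between IgGK and WTK, 0.09 ± 0.32 between LepK and IgGK and 0.54 ± 0.29 between LepL and IgGL (SE, exact permutation p = 0.2, 0.9 and 0.2, where 0.1 is the smallest possible).

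Among the fibril-associated collagens, Col12a1 stood at 9.60, 9.08 and 11.7 normalized CPM in WTK, at 76.2, 88.9 and 73.3 in IgGK and at 15.5, 23.9 and 27.3 in LepK. The groups did not overlap, and the 3 LepK libraries were nearer to WTK than to IgGK. It rose by 2.97 ± 0.18 on the log2 scale over WTK (adjusted p = 8.48e-08 by edgeR), and the change was -1.84 ± 0.17 in LepK against IgGK (adjusted p = 6.93e-05) and 1.13 ± 0.18 when LepK was set against WTK (adjusted p = 0.000363). The fall in LepK with IgGK replicate 3 alone was -1.71 (adjusted p = 0.00649 by edgeR) and was still called.

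In lung, Col12a1 stood at 149, 200 and 221 normalized CPM in IgGL and at 143, 131 and 104 in LepL. The groups did not overlap, although IgGL replicate 1 and LepL replicate 1 lay close together. The log2 fold change of -0.59 ± 0.17 was not called (adjusted p = 0.0726 by edgeR), and it was called, at -0.74, without IgGL replicate 1.

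Col14a1, which encodes a collagen that binds fibrils through decorin, did not follow Col12a1. Its values were 19.0, 27.8 and 26.7 normalized CPM in WTK, 30.5, 27.6 and 29.0 in IgGK and 23.7, 21.3 and 18.4 in LepK. WTK overlapped with both other groups. IgGK and WTK differed by 0.24 ± 0.13 on the log2 scale (adjusted p = 0.144 by edgeR), and LepK and IgGK by -0.46 ± 0.13, where its adjusted p was 0.0299 but its size was under the threshold. The LepK against IgGK value was -0.45 with IgGK replicate 3 alone. In LepK against WTK the log2 fold change was -0.21 ± 0.14 (adjusted p = 0.24 by edgeR), and this sign flipped when counts were scaled by library size.

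In lung, Col14a1 was the 1 gene of the 10 with all LepL libraries above all IgGL libraries. It stood at 47.8, 31.2 and 22.3 normalized CPM in IgGL and at 60.3, 49.6 and 58.9 in LepL. The log2 fold change of 0.74 ± 0.24 was not called by edgeR (adjusted p = 0.0948). It was called by DESeq2, without the filter on low counts, in the fit of all 15 libraries and, at 1.07, without IgGL replicate 1.

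Col16a1 stood at 24.6, 25.7 and 25.5 normalized CPM in WTK, at 51.8, 59.2 and 46.9 in IgGK and at 35.1, 41.4 and 40.5 in LepK. The WTK libraries lay close together, and the groups did not overlap. It rose in IgGK (log2 fold change 1.06 ± 0.09, adjusted p = 1.35e-06 by edgeR) and was higher in LepK than in WTK (0.63 ± 0.09, adjusted p = 0.000273). Its difference in LepK against IgGK, -0.43 ± 0.09, had an adjusted p of 0.00621 by edgeR but was under the size threshold. With IgGK replicate 3 alone that difference was -0.26. The lung values were 102, 97.8 and 83.9 in IgGL and 74.2, 66.4 and 61.9 in LepL, without overlap, and the log2 fold change of -0.49 ± 0.11 (adjusted p = 0.0493 by edgeR) was also under the threshold.

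Of the transmembrane collagens, Col23a1, whose product is shed from the cell surface and can bind integrin α2β1, stood at 3.91, 3.95 and 3.97 normalized CPM in WTK, at 5.31, 4.66 and 4.63 in IgGK and at 7.41, 7.74 and 6.68 in LepK. LepK was highest, with no overlap between any pair of groups. The change over WTK in IgGK was 0.30 ± 0.16 on the log2 scale (adjusted p = 0.138 by edgeR), followed by 0.58 ± 0.16 in LepK against IgGK (adjusted p = 0.0221) and 0.88 ± 0.16 in LepK against WTK (adjusted p = 0.00102). The call in LepK against IgGK was lost without IgGK replicate 2, IgGK replicate 3, LepK replicate 1 or LepK replicate 2, with values of 0.54 to 0.66 over the 6 fits, while the call against WTK held in all 6. With IgGK replicate 3 alone, the value in LepK against IgGK was 0.66 (adjusted p = 0.184 by edgeR).

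In lung, Col23a1 was lower under LepAb. It stood at 78.0, 145 and 141 normalized CPM in IgGL and at 42.9, 56.7 and 55.7 in LepL. Every LepL library was below every IgGL library, of which replicate 1 was again the lowest. The log2 fold change was -1.23 ± 0.23 (adjusted p = 0.035 by edgeR), and the LepL mean was 42.6% of the IgGL mean. As with collagen VI, the call held without IgGL replicate 1 (-1.47) and was lost without any other library.

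Col13a1, a transmembrane collagen of cell adhesions and neuromuscular junctions, was scarce in kidney, at 0.395 to 1.44 normalized CPM in WTK, 0.809 to 0.857 in IgGK and 0.517 to 1.02 in LepK. The groups overlapped, and none of its kidney comparisons was called, with standard errors of 0.49 on the log2 scale in each. Its sign in IgGK against WTK flipped with library-size scaling. In lung it stood at 43.5, 40.7 and 56.5 in IgGL and at 31.3, 38.1 and 37.6 in LepL, without overlap (log2 fold change -0.39 ± 0.15, adjusted p = 0.131 by edgeR).

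**Figure D3:**
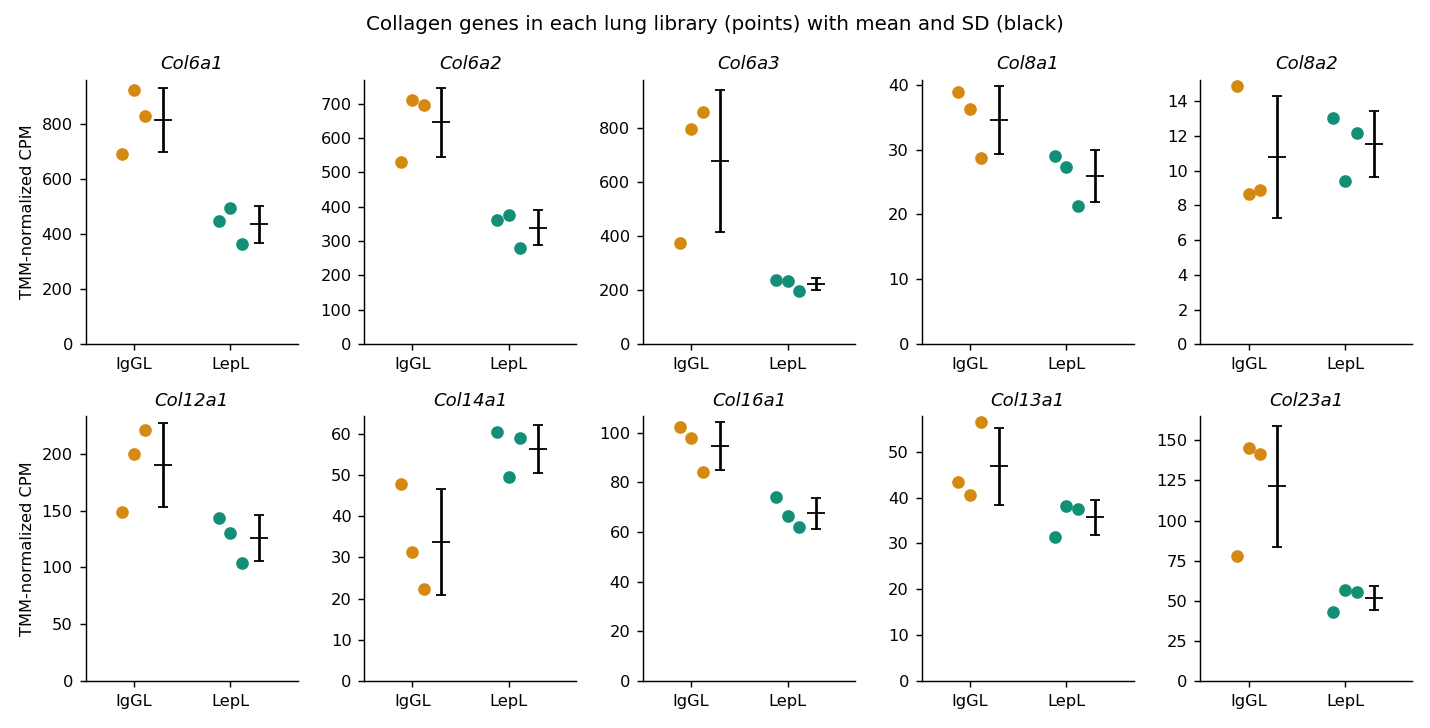
Each panel is 1 gene, with TMM-normalized CPM on the vertical axis, the 2 lung groups on the horizontal axis, 1 point per library and the mean with its SD in black. In the panels of Col6a1, Col6a2, Col6a3, Col12a1, Col16a1, Col13a1 and Col23a1 the LepL points lie below all IgGL points. In that of Col14a1 they lie above them.

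**Figure D4:**
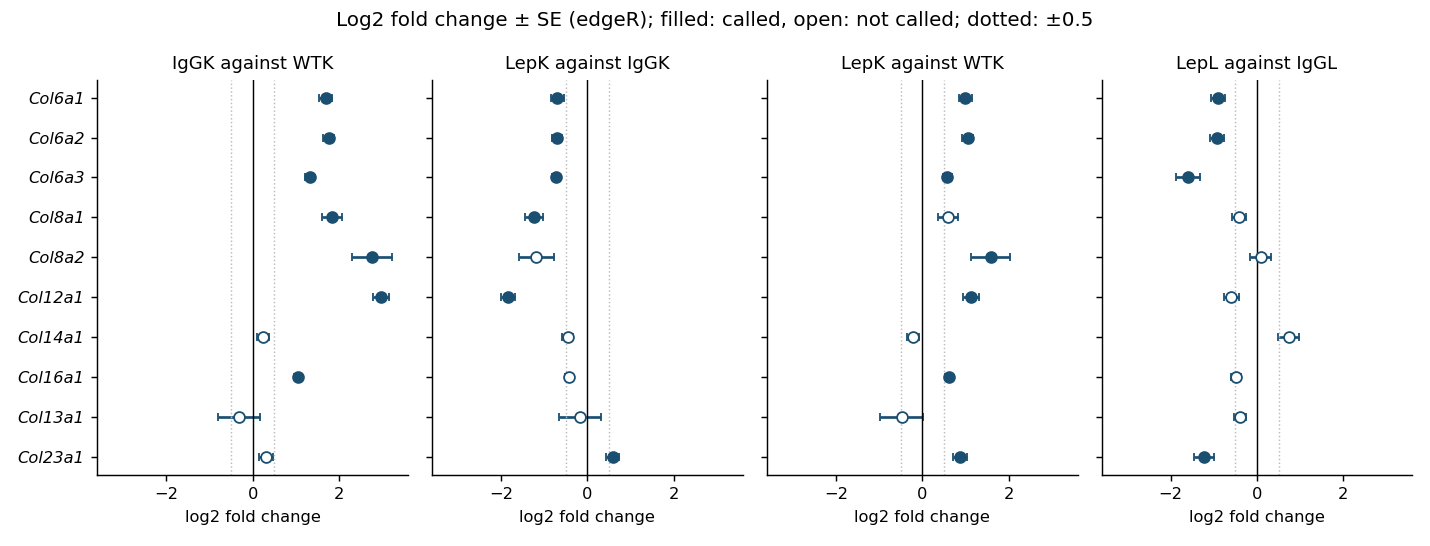
The 4 panels give the log2 fold change of each gene with its SE in the 4 comparisons, filled where the gene was called and open where it was not, with dotted lines at ±0.5. The filled points number 7 up in IgGK against WTK, 5 down and 1 up in LepK against IgGK, 7 up in LepK against WTK and 4 down in LepL against IgGL.

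Whether the effect of LepAb differed between the organs was tested as the difference of the 2 log2 fold changes in 1 fit of the 12 libraries from injured organs. It was called for 4 of the 10 genes at an adjusted p under 0.05, against 7.12% of all 21488 genes tested. Col23a1 had the largest difference, 1.84 ± 0.29 for kidney minus lung (adjusted p = 0.0078 by edgeR), with a positive effect in kidney and a negative one in lung. Col12a1 differed by -1.22 ± 0.27 (adjusted p = 0.0223 by edgeR), since its fall was larger in kidney. Col14a1 differed by -1.16 ± 0.29 (adjusted p = 0.0338) and Col8a2 by -1.24 ± 0.35 (adjusted p = 0.0481).

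Collagen VI showed no called difference between organs. The kidney minus lung values were 0.24 ± 0.23 for Col6a1, 0.25 ± 0.21 for Col6a2 and 0.89 ± 0.32 for Col6a3 (adjusted p = 0.103 for the last, by edgeR), and the value of Col6a1 changed sign with library-size scaling. Col8a1 was at -0.79 ± 0.24 (adjusted p = 0.0594 by edgeR), Col16a1 at 0.09 ± 0.16, a sign that also flipped with library-size scaling, and Col13a1 at 0.26 ± 0.31. Leaving out 1 library at a time gave 1 to 6 genes called, with 1 without IgGK replicate 2 and 1 without IgGL replicate 2, and Col23a1 was called in all 12 of these fits. Col12a1 was called in 10 of the 12, Col14a1 in 3 and Col8a2 in 1. With IgGK replicate 3 as the only IgGK library, 0 of the 10 genes and 4 of all genes were called, and the difference was 1.91 for Col23a1 (adjusted p = 0.113 by edgeR) and -1.11 for Col12a1 (adjusted p = 0.205). Organ, injury and days of treatment differ together in this test and cannot be told apart.

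**Figure D5:**
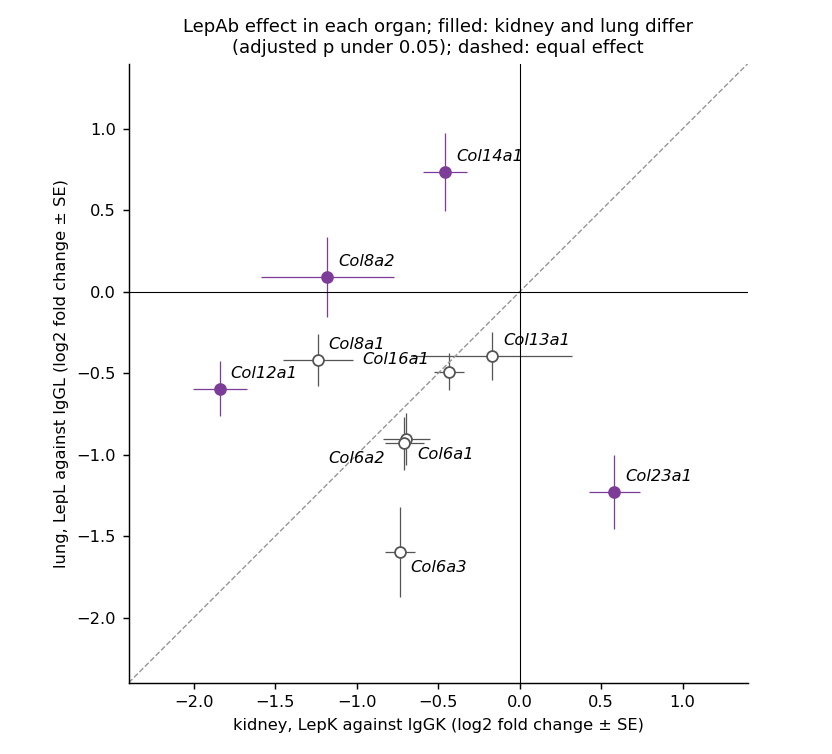
Each point is 1 gene, with its log2 fold change ± SE for LepK against IgGK on the horizontal axis and for LepL against IgGL on the vertical axis, filled where the kidney minus lung difference had an adjusted p under 0.05. Col6a1, Col6a2 and Col16a1 lie near the dashed line of equal effect, and Col8a2, Col12a1, Col14a1 and Col23a1 are filled.

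The other collagens, the receptors that bind these proteins and the matrix molecules found with them were counted in the same way. Of 11 fibrillar collagen genes, 10 were tested in kidney, of which 6 rose and 1 fell in IgGK (median log2 fold change 1.85), and 5 fell and 1 rose in LepK against IgGK (median -0.96). Of 11 tested in lung, 6 fell in LepL (median -1.02). Col1a1 and Col3a1, the main chains of fibril collagens I and III, rose in IgGK by 3.88 and 3.91 on the log2 scale over WTK, and under LepAb they stood at -1.24 and -1.52 in kidney and at -1.21 and -0.99 in lung, all called. Of the 6 type IV collagen genes of basement membranes, 3 rose and 2 fell in IgGK (median 0.60), 2 fell in LepK against IgGK (median -0.06) and 2 fell in LepL (median 0.31).

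Of 17 other nonfibrillar collagen genes, 15 were tested in kidney. In IgGK 5 rose and 1 fell (median 0.94), and in LepK against IgGK 2 fell (median -0.02). In lung 3 of 14 fell (median 0.003). Col15a1, a basement membrane collagen, was called in all 3 comparisons, with log2 fold changes of 2.94, -1.15 and -1.11, and so was Col7a1, the anchoring fibril collagen, with 0.94, -0.62 and -1.61. Col17a1, a transmembrane collagen of hemidesmosomes, had the largest rise in IgGK of this list, 4.97. The alternative α3-like chains Col6a4, Col6a5 and Col6a6 stood at 0.432 to 4.12 normalized CPM over all 15 libraries, and of these Col6a5 was called up in IgGK (0.96) and in LepK against WTK (1.31).

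Of 12 collagen receptor genes, 8 rose in IgGK (median 1.54), 5 fell in LepK against IgGK (median -0.63) and 1 fell in LepL (median -0.12). The anthrax toxin receptors Antxr1 and Antxr2, which bind collagen VI, rose in IgGK (log2 fold change 2.26 and 1.23) and fell in LepK against IgGK (-1.01 and -0.64). In lung Antxr1 was at 0.16 and Antxr2 at 0.02, and neither was called. Antxr1, Antxr2, Dcn, Col15a1, Lep and the α3-like chains of collagen VI are named here after their values were seen. Cspg4, the NG2 proteoglycan that binds collagen VI, was the 1 receptor called down in lung (-0.66), and in kidney it was at 0.30 and -0.04. For the kidney minus lung difference of the LepAb effect, 3 of the 12 receptor genes were called down and 1 up. The lowest value was -1.15 for Antxr1 and the highest 0.65 for Cspg4 (adjusted p = 0.016 and 0.0483 by edgeR).

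Of 15 matrix partner genes, 13 were tested in each organ. In IgGK 8 rose and 2 fell (median 1.22), in LepK against IgGK 6 fell and 1 rose (median -0.35), and in LepL 4 fell and 1 rose (median -0.13). Tnxb, the tenascin that binds collagens XII and XIV, was the 1 gene of this list that rose in LepL (1.04). Tnc, a tenascin of injured tissue, fell there, with a log2 fold change of -2.355. Decorin (Dcn) rose in IgGK (1.32) and fell in LepK against IgGK (-0.60), and stood at 0.16 in lung, not called.

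Markers of several cell types moved with these results in kidney. In bulk tissue, fewer cells of a type and less RNA per cell cannot be told apart. Of 10 fibroblast markers, 6 rose and 1 fell after folic acid with IgG and 4 fell in LepK against IgGK, with summed levels of 125 to 165 normalized CPM in WTK, 382 to 406 in IgGK and 234 to 299 in LepK. All 8 macrophage markers rose in IgGK and 7 fell in LepK against IgGK, with sums of 166 to 185, 781 to 1005 and 362 to 490. Of 6 adipocyte markers, 5 rose and Lep fell in IgGK, and 1 fell in LepK against IgGK, with sums of 25.7 to 95.3, 295 to 494 and 92.8 to 255. All 5 urothelial markers rose in IgGK and fell in LepK against IgGK, with sums of 13.8 to 18.2, 62.9 to 84.5 and 33.1 to 45.8. None of these 4 lists held a marker at 0 in a whole group.

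Of 4 mesothelial markers, 3 rose in IgGK and 1 fell in LepK against IgGK, with sums of 10.1 to 16.7, 61.9 to 66.1 and 37.5 to 53.0. All 5 proximal tubule markers fell in IgGK and 4 rose in LepK against IgGK, with sums of 13220 to 14060 in WTK, 3087 to 4115 in IgGK and 5582 to 7335 in LepK. Of the 8 smooth muscle and pericyte markers, 3 rose and 1 fell in IgGK and 1 rose in LepK against IgGK, with sums of 131 to 161, 147 to 169 and 169 to 187. Of the 6 endothelial markers 2 fell in IgGK, with sums of 207 to 237, 160 to 179 and 186 to 203.5. The adrenal cortex markers are given above, with 4 of 4 tested up in IgGK and 4 of 4 down in LepK against IgGK. The part of these cells in the collagen values was not tested.

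In lung, 2 of the 10 fibroblast markers fell in LepL, with sums of 1004 to 1159 normalized CPM in IgGL and 807 to 900 in LepL, and 3 of the 8 macrophage markers fell, with sums of 1582 to 2104 and 886 to 1283. Higher in LepL were 3 of 4 alveolar type 2 markers (sums of 6238 to 11560 and 16810 to 23080) and 2 of 5 adipocyte markers tested (32.6 to 65.5 and 71.9 to 143). So was 1 of 6 striated muscle markers (253 to 657 and 674 to 1674). Of 4 mesothelial markers 2 were higher in LepL, but the sums of the 4 overlapped (631 to 899.6 and 753 to 815). IgGL replicate 1 had the highest alveolar type 2 and striated muscle sums of its group, and the lowest values of Col6a1, Col6a2, Col6a3, Col12a1 and Col23a1. No marker of these 6 lists was at 0 in a whole lung group. Their part in the lung results was not tested.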

How the data were processed

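Poly(A)-selected RNA of kidney and lung was sequenced without strand information, with 3 libraries in each of 5 groups taken from the sample titles. The authors deposited 1 table with read counts per gene and FPKM values, which divide those counts by gene length and by a total for each library. From the values, that total was 1.02 to 1.04 times the summed counts in WTK, 1.40 to 1.46 times in IgGK, 1.18 to 1.28 times in LepK and 1.43 to 1.46 times in lung, and how it was set is not given in the sources used here. The submitters' processing notes name GRCm39 (mm39), DESeq and DESeq2, and the aligner and counter are not given in the sources used here. Columns of the authors' own comparisons (fold changes and p-values) and of group means were not used. No count column was left without a sample (0 columns). The column for LepL replicate 3 carries a further suffix beside its label.

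Counts were tested with edgeR 4.0.16 in R 4.3.3 (limma 3.58.1), by the quasi-likelihood test with Benjamini-Hochberg adjustment over all genes. Genes were filtered at a minimum count of 10 and a total of 15, and libraries were scaled by TMM. One fit held the 9 kidney libraries, another the 6 lung libraries, and the last the 12 libraries from injured organs for kidney minus lung. A call needed an absolute log2 fold change over 0.5 and an adjusted p under 0.05, or the adjusted p alone for kidney minus lung. The code was tested on simulated data. Alternatives were other scalings and filters, DESeq2 1.42.0, a replicate block, other thresholds, a fit of all 15 libraries and each library left out. IgGK replicate 3 alone was added after seeing the data. Ratios of FPKM were tested by exact permutation (scipy 1.17.1).

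The 10 genes and the gene lists were chosen with earlier results of these data known. The 10 genes are all named, and of each list the highest and lowest genes may be named, with Col1a1 and Col3a1 and those stated as chosen after their values were seen.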

Additional observations from a re-analysis of the deposited data

Results flagged for a closer look

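The effect of LepAb differed between kidney and lung for 4 of the 10 genes, against 7.12% of all 21488 genes, in a test of the difference itself by edgeR. The kidney minus lung difference in log2 fold change was 1.844 for Col23a1, which was higher in all 3 LepK libraries than in all IgGK libraries and lower in all 3 LepL libraries than in all IgGL libraries. It was -1.216 for Col12a1, which was lower under LepAb in both organs. It was -1.163 for Col14a1, which was lower in all LepK libraries and higher in all LepL libraries. It was -1.241 for Col8a2, which was lower in all LepK libraries and overlapped between the lung groups. With 1 library left out, Col23a1 was called in all 12 fits, Col12a1 in 10, Col14a1 in 3 and Col8a2 in 1. Without IgGK replicates 1 and 2, which held the most adrenal transcripts, none of the 4 was called, and the differences were 1.91 for Col23a1, -1.11 for Col12a1, -1.17 for Col14a1 and -1.22 for Col8a2.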

How the results depend on the processing

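Over the alternatives run, 126 counts of called genes stayed within 1.5 times the reported count and 33 moved. Of the values of single genes and of chain ratios, 780 kept their direction and, for genes, their call. A further 76 lost their call, 40 gained one and 10 changed sign. In LepK against IgGK, the count up went from 1 to 0 with library-size scaling, without the filter on low counts, with an absolute log2 fold change over 1, in the fit of all 15 libraries and with IgGK replicate 3 alone. The count down there went from 5 to 8 with library-size scaling, to 2 with a log2 fold change over 1 and to 2 with IgGK replicate 3 alone. Over all genes, library-size scaling took the LepK against IgGK calls from 858 to 408 up and from 1174 to 2185 down. In LepK against WTK, the count up was 3 with a log2 fold change over 1. In LepL against IgGL, the count up was 1 by DESeq2 (1242 of all genes), without the filter (1515) and in the fit of all 15 libraries (1247). The count down was 2 with a log2 fold change over 1 (229 of all genes). The kidney minus lung count was 0 with IgGK replicate 3 alone. The cause of these changes was not tested.

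With 1 library left out, the counts were 0 to 1 up and 5 to 6 down in LepK against IgGK, 6 to 8 up in LepK against WTK, 0 to 1 up and 0 to 5 down in LepL against IgGL, and 1 to 6 for kidney minus lung.

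Signs changed for Col13a1 between IgGK and WTK (0.13 with library-size scaling, -0.69 to 0.0204 with 1 library left out), in LepK against IgGK (-0.48 to 0.0270) and for kidney minus lung (-0.092 to 0.46), and for Col8a2 in LepL against IgGL (-0.0462 to 0.39). With library-size scaling, Col14a1 was at 0.0443 in LepK against WTK, and the kidney minus lung value was -0.0063 for Col6a1 and -0.16 for Col16a1.

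The labels give replicate numbers in each group. Same-numbered libraries deviated together with r = 0.058, -0.016 and -0.011 for IgGK and WTK, 0.228, 0.215 and -0.049 for LepK and IgGK, and -0.048, 0.116 and -0.097 for LepL and IgGL, so the numbers were not taken to pair them, and not every library correlated best with its own number. With the replicate block, 7 of the 10 genes were up when IgGK was set against WTK, 1 was up and 5 were down in LepK against IgGK, 8 up in LepK against WTK, 0 down in LepL against IgGL, where 1 of all genes was up and 3 were down, and 3 for kidney minus lung. Depth limited Col13a1 in kidney, whose lowest count was 10 and whose lowest value was 0.395 normalized CPM. It also limited Col8a2 in WTK, at 0.291 normalized CPM in replicate 1 and 0.316 in replicate 2.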
